A study of Rattus norvegicus with 42 samples.

Results

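Vegfa, Ldha, Slc2a1 and Hk2 are 4 genes of glucose use and of the response to low oxygen. They were followed here in rat GH4C1 cells after a change of medium, with and without the long non-coding RNA Neat1. They were taken by their Ensembl identifiers (Vegfa ENSRNOG00000019598, Ldha ENSRNOG00000013009, Slc2a1 ENSRNOG00000007284, Hk2 ENSRNOG00000006116), and all 4 were present among the 13776 genes of both deposited count tables. The tables name genes by identifier alone. The 4 symbols came with the choice of genes and were not checked against an annotation, since the reference table used here holds no rat Ensembl identifiers.

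GH4C1 cells are a rat somatolactotroph pituitary line, able to make prolactin and growth hormone. Wild-type cells (WT) were labelled as untreated, and knockout cells (KO) were labelled Neat1 -/- after CRISPR-Cas9. Both were grown in the same medium with horse and fetal calf serum, were synchronised by fresh medium and were harvested between 10 h (T10) and 34 h (T34) afterwards, at steps of 4 h (the sample names call these times ZT10 to ZT34), with 3 replicates at each of the 7 times in each genotype, or 42 libraries. Whether the KO cells were 1 clone, and whether replicates came from separate cultures, is not given in the sources used here, so p-values measure the spread between these samples, which may be technical. Neat1 itself and the pituitary marker genes could not be looked up by symbol and were not analysed here, so the genotype and the cell type were taken from the labels.

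Glucose enters cells through transporters, of which GLUT1, encoded by Slc2a1, is the most widely expressed. Hexokinase 2, encoded by Hk2, then phosphorylates it and so commits it to the cell, and the A subunit of lactate dehydrogenase, encoded by Ldha, turns the pyruvate at the end of glycolysis into lactate. In low oxygen the factor HIF-1 is stabilised and raises the transcription of all 3, together with Vegfa, which encodes the secreted growth factor that acts on the endothelium. The genes also answer to growth factors and to nutrient supply. Cells in culture use up glucose and, where dense, oxygen between changes of medium, and the question here was whether the 4 genes moved late in the series and whether they did so in both genotypes. No glucose, lactate or oxygen value is among the labels.

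The libraries held 34.5 to 68.8 M counts in WT and 45.9 to 60.5 M in KO. Levels are given as CPM, the counts of a gene per M counts of its library after TMM scaling, and each value of the 4 genes rests on at least 1659 counts. The SD of replicates ran from 0.554% of their mean (Hk2 in KO at T10) to 42.2% (Hk2 in KO at T30). In the tightest groups counting error need not be small beside the spread between libraries. In KO, 17.6% to 21.2% of a library's counts fell on the 2 genes most raised there, against 0.0308% to 0.335% in WT. The WT and KO libraries came in separate tables, and how each set was prepared cannot be told apart from genotype. A pair of libraries stood apart from their replicates for these genes, WT T34 replicate 1 and KO T30 replicate 1. WT T34 replicate 1 stood apart over all genes as well, as given under the processing. The values that the pair moves most are given with and without them. Since they were picked for standing apart, p-values from fits without them can come out too small.

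The sequences upstream of the 4 genes are shown because HIF-1 is known to bind a short core motif, and because Ldha and Hk2 moved together in KO while Vegfa moved the other way. The 250 bases before each gene's annotated start were read from RefSeq (build GRCr8), where all 4 symbols were matched. Capitals mark every ACGTG or GCGTG, the 2 forms of that core, on either strand, so that the reverse strand shows as CACGT or CACGC. The windows are chr1:106507842-106508091 (+ strand) for Ldha, chr5:138002272-138002521 (+ strand) for Slc2a1, chr4:116841276-116841525 (- strand) for Hk2 and chr9:22452604-22452853 (+ strand) for the first of the 2 Vegfa starts in the table.
Ldha: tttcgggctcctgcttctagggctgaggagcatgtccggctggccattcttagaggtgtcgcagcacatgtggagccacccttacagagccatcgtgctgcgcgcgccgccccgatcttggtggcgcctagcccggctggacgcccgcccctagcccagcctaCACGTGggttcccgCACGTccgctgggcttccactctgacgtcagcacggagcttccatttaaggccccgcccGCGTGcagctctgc
Slc2a1: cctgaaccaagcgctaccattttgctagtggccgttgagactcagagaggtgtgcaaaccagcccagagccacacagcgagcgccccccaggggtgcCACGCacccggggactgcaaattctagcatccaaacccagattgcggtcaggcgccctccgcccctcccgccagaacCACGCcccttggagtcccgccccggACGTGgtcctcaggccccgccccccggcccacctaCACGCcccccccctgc
Hk2: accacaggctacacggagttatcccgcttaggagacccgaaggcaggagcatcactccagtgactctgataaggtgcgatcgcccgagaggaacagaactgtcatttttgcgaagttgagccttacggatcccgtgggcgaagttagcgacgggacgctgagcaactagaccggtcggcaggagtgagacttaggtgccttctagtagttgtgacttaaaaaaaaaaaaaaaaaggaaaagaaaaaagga
Vegfa: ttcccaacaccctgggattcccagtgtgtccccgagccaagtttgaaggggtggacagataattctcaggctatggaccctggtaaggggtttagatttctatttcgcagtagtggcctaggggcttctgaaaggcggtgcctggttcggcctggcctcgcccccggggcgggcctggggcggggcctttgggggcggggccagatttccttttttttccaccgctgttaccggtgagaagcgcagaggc
The Ldha window held 4 matches, of which 2 overlap as the palindrome 87 to 82 bases before the start, and the Slc2a1 window held 4. The Hk2 window and both Vegfa windows held 0. Of all 33469 such windows of the same length, 36.7% held at least 1 match and 2.44% held at least 4. The GC content was 66.4% for Ldha, 68.4% for Slc2a1, 49.6% for Hk2 and 60.4% for Vegfa, against a median of 51.2% over all windows. A match is a description of letters and not of a bound site, and the windows leave out any more distant element.

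In KO, Ldha and Hk2 both fell over the last 12 h of the series and Vegfa rose. In WT, with all libraries, Hk2 and Slc2a1 rose over the same hours, and neither Ldha nor Vegfa was called. Without WT T34 replicate 1 the call of Hk2 was lost and Ldha was called higher, as given below. The level of Ldha in KO was 693, 676 and 702 CPM at T10 (replicates 1, 2 and 3) and 695, 691 and 745 CPM at T22. At T30 it was 731, 371 and 434 CPM, and at T34 351, 379.6 and 361 CPM. All 3 libraries of T34 were thus below every KO library from T10 to T26, which spanned 660.3 to 748 CPM and, as for Hk2 below, such a gap was found in 21.4% of all genes (33% against T22 alone), and at T30 replicates 2 and 3 were already low while replicate 1 was not.

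Against T22, Ldha fell at T34 in KO by 0.97 on the log2 scale (SE 0.16, n = 3 and 3, edgeR quasi-likelihood test, adjusted p 1.59e-05), to 0.512 of its level. Only 2.00% of all genes had a lower value in this comparison, in which 36.1% of genes were called. The level of Hk2 in KO was 81.4, 82.3 and 81.7 CPM at T10, 83.1, 83.1 and 90.1 CPM at T22, 97.6, 49.0 and 50.3 CPM at T30, and 43.2, 47.5 and 45.8 CPM at T34. Replicate 1 of T30 again stayed with the earlier times, and the T34 libraries lay below all KO libraries from T10 to T26 (77.9 to 99.9 CPM). Hk2 fell by 0.91 on the log2 scale from T22 to T34 (SE 0.17, edgeR adjusted p 7.99e-05), and 2.46% of all genes had a lower value.

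Vegfa, the one secreted factor among the 4, went the other way in KO. Its level was 118, 123 and 121 CPM at T10, 122, 128 and 123 CPM at T22, 145, 161 and 162 CPM at T30, and 152, 166 and 165 CPM at T34. The 6 libraries of T30 and T34 were all above the 15 earlier KO libraries, which reached 135 CPM, as in 4.58% of all genes, and 29% of genes had T34 wholly above T22. The log2 change from T22 to T34 was 0.38 (SE 0.05, edgeR adjusted p 9.23e-07), a 1.3-fold rise. Slc2a1 was 53.4, 55.3 and 58.4 CPM at T22 and 51.4, 53.9 and 53.1 CPM at T34 in KO, ranges that overlap. Its log2 change was -0.08 (SE 0.07, edgeR adjusted p 0.405) and did not pass the test. Thus 3 of the 4 genes were called for the late change in KO, 1 higher against 17.4% of all genes and 2 lower against 18.7%.

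**Figure D1:**
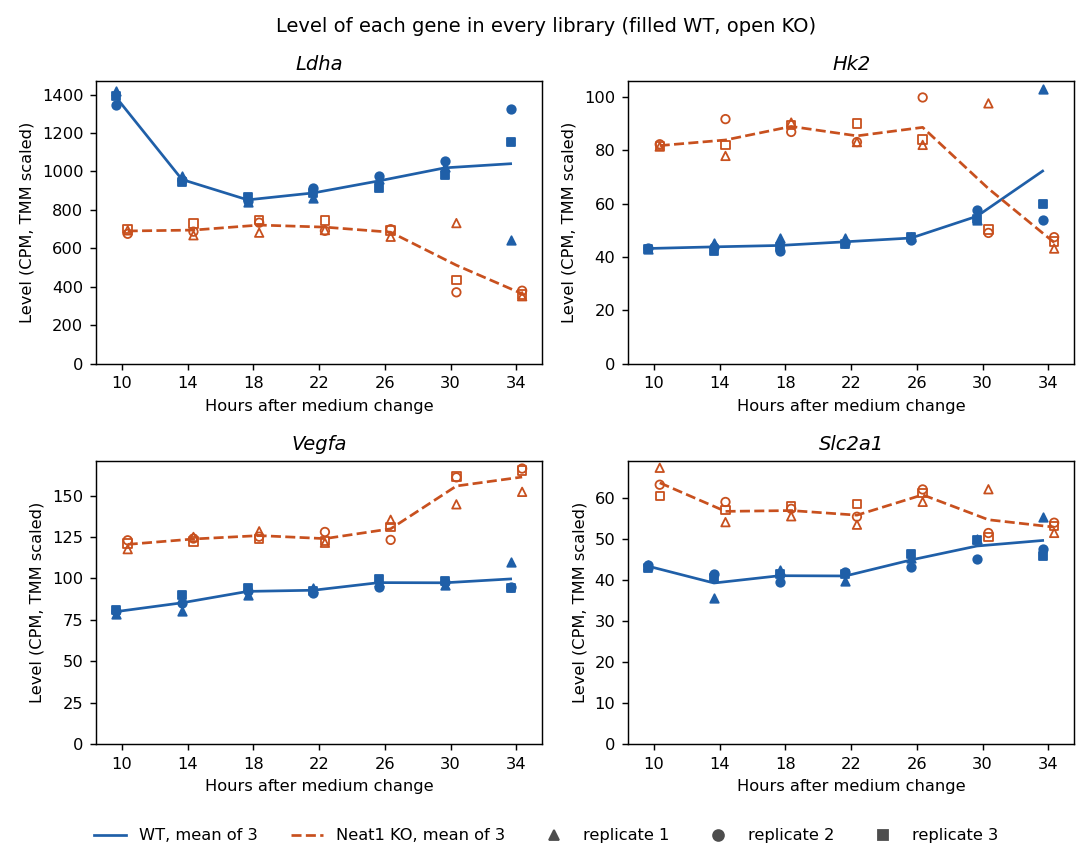
Level of Ldha, Hk2, Vegfa and Slc2a1 in every library (CPM after TMM scaling, linear axis from 0) against hours after the medium change. Filled blue symbols are WT and open orange symbols KO, set slightly apart sideways, marker shapes are replicates, and lines join the means of 3. At T34 the KO libraries lie at 351 to 379.6 CPM for Ldha, and WT T34 replicate 1 lies alone at 643 CPM.

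In WT the late hours looked different, and 1 library decided much of it. Ldha was 863, 915 and 887 CPM at T22 and 643, 1324 and 1155 CPM at T34. Replicate 1 of T34 was the lowest of all 21 WT libraries, and replicates 2 and 3 were above every WT library except those of T10. The log2 change from T22 to T34 was 0.23 (SE 0.16, edgeR adjusted p 0.295) with all libraries. Without WT T34 replicate 1 Ldha rose by 0.48 (SE 0.13, edgeR adjusted p 0.00845). In that fit 2107 genes were called for the late change in WT, 47% of them higher. With all libraries 3669 were called, 66.4% of them higher.

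Hk2 in WT was 47.2, 45.2 and 44.8 CPM at T22, 53.8, 57.8 and 54.3 CPM at T30, and 103, 53.9 and 59.9 CPM at T34. Every library of T30 and T34 was above the 15 earlier WT libraries, which spanned 42.1 to 47.5 CPM, and T34 replicate 1 was far above the rest. This split of the times was chosen after the values were seen, and 0.181% of all genes showed it in WT. The log2 change from T22 to T34 was 0.66 (SE 0.17, edgeR adjusted p 0.00588). It was 0.31 (SE 0.15, adjusted p 0.150) without WT T34 replicate 1, and 0.31 (SE 0.07, adjusted p 9.12e-04) when KO T30 replicate 1, which shares the estimate of spread, was left out as well.

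Slc2a1 in WT was 39.6, 41.8 and 41.3 CPM at T22, 49.8, 45.2 and 49.6 CPM at T30, and 55.3, 47.6 and 45.8 CPM at T34. The T34 libraries were all above those of T22, as in 9.38% of all genes. It rose by 0.28 on the log2 scale (SE 0.07, edgeR adjusted p 0.00487), and by 0.19 (SE 0.07, adjusted p 0.0489) without WT T34 replicate 1. Without replicate 1 at all WT times the change was 0.17 and was not called (adjusted p 0.126).

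Vegfa in WT was 94.4, 91.5 and 92.7 CPM at T22 and 110.2, 94.8 and 94.1 CPM at T34, with ranges that overlap. Its log2 change was 0.10 (SE 0.05, edgeR adjusted p 0.148), and 0.02 (SE 0.05, adjusted p 0.789) without WT T34 replicate 1. With all libraries 2 of the 4 genes were called for the late change in WT, both higher, where 26.6% of all genes were called, 17.7% higher and 8.94% lower.

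Whether the late change differed by genotype was tested as the KO change minus the WT change. All 4 genes were called, against 35.3% of all genes. The difference was -1.19 for Ldha (SE 0.23, edgeR adjusted p 1.65e-04) and -1.57 for Hk2 (SE 0.24, adjusted p 1.15e-05) on the log2 scale. It was 0.28 for Vegfa (SE 0.07, adjusted p 0.00480) and -0.35 for Slc2a1 (SE 0.10, adjusted p 0.00583). Without WT T34 replicate 1 all 4 kept their sign and call, at -1.45, -1.22, 0.35 and -0.27 in the same order. The differences of Vegfa and Slc2a1 were less secure. Without KO replicate 3 at all times the value for Vegfa was 0.25 with adjusted p 0.0561, and without WT replicate 1 at all times that for Slc2a1 was -0.22 with adjusted p 0.0611. Of the genes tested, 13.9% were called higher and 21.4% lower in this comparison.

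**Figure D2:**
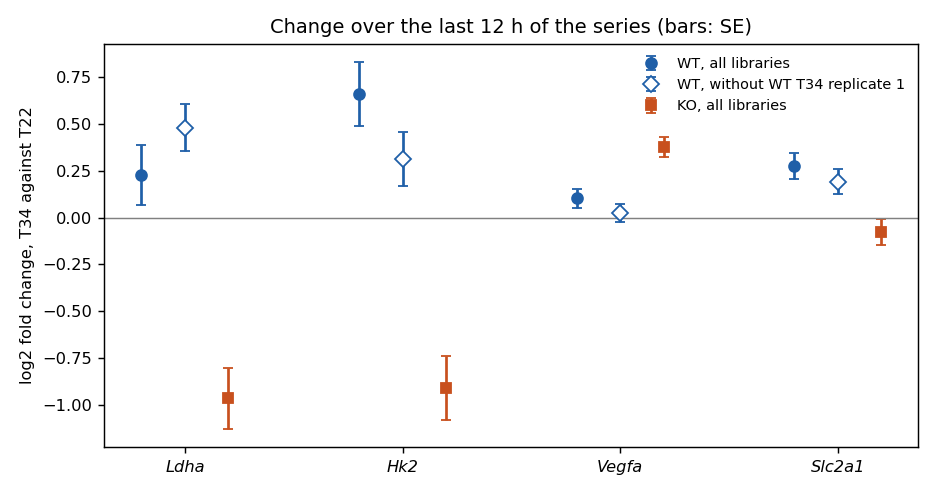
Log2 fold change from T22 to T34 for each gene (linear axis, bars are SE from the edgeR fit). Blue circles are WT with all libraries, open diamonds WT without WT T34 replicate 1, and orange squares KO. Ldha and Hk2 lie near -0.97 and -0.91 in KO and above 0 in WT, and for Hk2 the WT value falls from 0.66 to 0.31 without that library.

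The first 12 h, from T10 to T22, gave a change of Ldha in WT that was not called in KO. Ldha in WT was 1417, 1345 and 1394 CPM at T10, 974, 953 and 948 CPM at T14 and 840.4, 848 and 868 CPM at T18. The T10 libraries were above the other 18 WT libraries, which holds for 3.39% of all genes. Ldha fell by 0.64 on the log2 scale from T10 to T22 (SE 0.16, edgeR adjusted p 0.00564, 13.2% of genes called, 6.38% higher and 6.79% lower), and 2.48% of all genes had a lower value. Without WT replicate 3 at all times the adjusted p was 0.0754. The step to T14 alone was -0.53 and was not called (edgeR adjusted p 0.0942), where 215 genes were.

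Vegfa in WT rose over these hours, from 78.6, 80.6 and 80.7 CPM at T10 to the T22 values above, by 0.22 on the log2 scale (SE 0.05, edgeR adjusted p 0.00458). It was 80.5, 85.0 and 90.3 CPM at T14 and 90.2, 92.2 and 94.1 CPM at T18, so that the T10 and T14 libraries overlapped. Those of T18 and T22 lay above T10, a gap whose share among all genes is not given here. Without WT replicate 2 at all times its adjusted p was 0.0510. Hk2 in WT was 43.1, 43.5 and 43.0 CPM at T10 and Slc2a1 was 43.5, 43.5 and 42.8 CPM, and neither was called (log2 changes 0.08 and -0.08, adjusted p 0.854 and 0.545).

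In KO 0 of the 4 genes were called from T10 to T22, a comparison in which edgeR called 1.33% of all genes. The log2 changes were 0.04 for Vegfa, 0.04 for Ldha and 0.06 for Hk2, with unadjusted p of 0.443, 0.798 and 0.713. Slc2a1 was 67.3, 63.1 and 60.4 CPM at T10, with a log2 change of -0.19 (SE 0.07, edgeR adjusted p 0.242, unadjusted p 0.00956). It was called at adjusted p 0.0125 without both WT T34 replicate 1 and KO T30 replicate 1, a removal chosen after the data were seen. In that fit 985 genes were called for the early change in KO, against 183 with all libraries. DESeq2 gave the same 0 calls. The difference between genotypes in this early change was 0.68 for Ldha (SE 0.23, edgeR adjusted p 0.0690, 6.45% of genes called), and without WT T34 replicate 1 it was 0.68 with adjusted p 0.00273. The early and late changes share the T22 libraries.

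Levels were also compared between the genotypes, over all 7 times and at each time. Averaged over the 7 times, edgeR called all 4 genes for KO against WT, but 88.1% of all genes were called in this comparison, 43.4% higher and 44.7% lower, so the count sets the 4 genes apart from nothing. Vegfa was 78.6 to 110.2 CPM in the 21 WT libraries (median 94.1) and 118 to 166 CPM in the 21 KO libraries (median 125). The groups did not overlap, as held for 8.62% of all genes with KO higher. Its log2 fold change was 0.54 (SE 0.02, adjusted p 3.42e-22), and it was called higher in KO at all 7 times, as were 16.5% of all genes, though with library totals in place of TMM the calls at T22 and T26 were lost. Of all genes, 69.6% were called at T10, and the next times gave 70.9% (T14), 68.9% (T18), 70.5% (T22), 70.3% (T26), 73% (T30) and 60.7% (T34).

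Ldha was 643 to 1417 CPM in WT (median 963) and 351 to 748 CPM in KO (median 691). The only WT library inside the KO range was T34 replicate 1. The log2 fold change was -0.72 (SE 0.06, edgeR adjusted p 1.07e-12). At T10 it was -1.01, and it then shrank to -0.46 (T14), -0.24 (T18) and -0.32 (T22) before reaching -0.48 (T26), -0.99 (T30) and -1.52 (T34). The calls failed at T18 and T22 (adjusted p 0.181 and 0.0720). In fits of the 6 libraries of each time alone both were called (adjusted p 9.17e-04 and 4.97e-06). The difference was thus smallest in the middle of the series, where WT was lowest, and largest at T34, where KO was lowest.

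Hk2 was 42.1 to 103 CPM in WT (median 46.6) and 43.2 to 99.9 CPM in KO (median 82.3). From T10 to T26 every KO library was above every WT library, and the log2 fold change was 0.90 to 1.01, a separation that 27.5% of all genes showed in this direction. At T30 it was 0.25 (SE 0.17, edgeR adjusted p 0.190), and at T34 it was -0.67 (SE 0.17, adjusted p 0.00116), so that KO was by then lower. Without KO T30 replicate 1 the value at T30 was -0.15 (adjusted p 0.322), and with WT T34 replicate 1 left out as well it was -0.15 and was called lower in KO (adjusted p 0.0342). Without WT T34 replicate 1 the value at T34 was -0.32 (adjusted p 0.0451), and without WT replicate 1 at all times the call was lost (-0.32, adjusted p 0.0669). The average over all times, 0.61 (SE 0.06, adjusted p 2.06e-10), joins values of opposite sign, and over T14 to T26 alone it was 0.94.

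Slc2a1 was 35.6 to 55.3 CPM in WT (median 43.0) and 50.4 to 67.3 CPM in KO (median 57.3). The only WT library above the lowest KO library was T34 replicate 1. The log2 fold change was 0.39 over all times (SE 0.03, edgeR adjusted p 3.64e-15). It was 0.55 at T10 and 0.44 at T26, then 0.18 at T30 (adjusted p 0.0212) and 0.09 at T34 (adjusted p 0.258). The call at T30 was lost without KO T30 replicate 1 (0.08, adjusted p 0.305), without WT replicate 2 at all times (0.12, adjusted p 0.170) and in a fit of the 6 libraries of T30 (0.17, adjusted p 0.0992). Without WT T34 replicate 1 the value at T34 was 0.18 and was called (adjusted p 0.0181). Over all genes, same-numbered WT and KO libraries of T34 correlated weakly around their group means (0.23, 0.13 and 0.14). For Vegfa, Slc2a1 and Hk2 replicate 1 was instead the highest of T34 in WT and the lowest in KO, and for Ldha it was the lowest in both. In an edgeR fit of those 6 libraries with the replicate block the calls of Vegfa (adjusted p 0.0517) and Hk2 (adjusted p 0.171) were lost. Ldha was called (adjusted p 0.0375). The same 6 libraries without the block gave adjusted p 0.0105 for Vegfa, 0.118 for Hk2 and 0.0147 for Ldha, so Hk2 was not called in them either way.

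These differences depend on how WT and KO libraries are scaled to each other. With library totals in place of TMM, the median log2 fold change of all genes over all times moved from -0.01 to -0.31, and the part of the calls with KO higher went from 49.2% to 31.7%. The values of the 4 genes moved with it, to 0.24 for Vegfa, -1.01 for Ldha, 0.09 for Slc2a1 and 0.31 for Hk2, all still called, so that relative to the median gene they were little changed. At single times Vegfa was then 0.11 at T22 and 0.10 at T26 and Slc2a1 0.14 and 0.12, none of them called (adjusted p 0.136, 0.168, 0.0969 and 0.136). Ldha was -0.54 at T18 and -0.63 at T22, both called (adjusted p 0.00159 and 3.05e-04). Slc2a1 turned to -0.09 at T30 and -0.18 at T34 (adjusted p 0.256 and 0.0356) and Hk2 to -0.03 at T30. When the 2 genes most raised in KO were left out of the totals, the values over all times were 0.55, -0.71, 0.40 and 0.61, close to those with TMM.

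**Figure D3:**
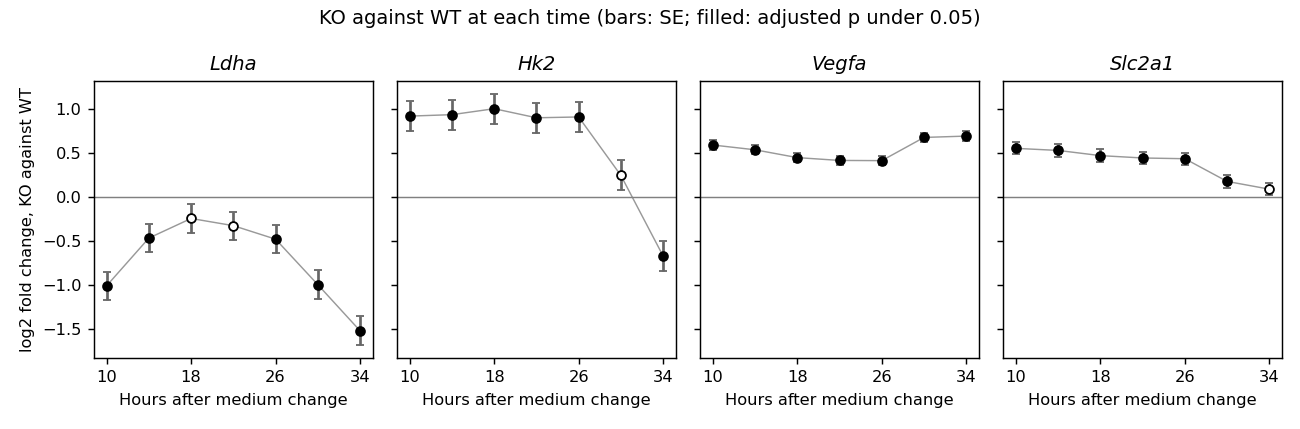
Log2 fold change of KO against WT at each time for each gene (linear axis, bars are SE, filled points have an edgeR adjusted p under 0.05). Hk2 is near 0.90 to 1.01 up to T26 and at -0.67 at T34, Ldha is below 0 throughout and lowest at T34 at -1.52, and Vegfa stays between 0.42 and 0.69.

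A ratio of 2 genes counted in the same library does not depend on the scaling between libraries, so the 6 ratios among the 4 genes were compared between genotypes, with labels permuted within each time (100000 resamples, two-sided, adjusted over the 6). As these are ratios of raw counts, not divided by gene length, only their differences between libraries have meaning. The Hk2 to Ldha ratio was 0.112 to 0.143 in all 21 KO libraries, from T10 to T34, although both genes fell late. In WT it was 0.0304, 0.0324 and 0.0308 at T10, 0.0546, 0.0494 and 0.0505 at T22, and 0.160, 0.0407 and 0.0519 at T34. The KO ratio thus stayed in a narrow band while the WT ratio changed after T10, and WT T34 replicate 1 was the only WT library above its lower end.

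On the log2 scale the Hk2 to Ldha ratio was -4.34 ± 0.47 in WT and -3.02 ± 0.09 in KO (SD, n = 21 each). The difference was 1.32, or 2.50-fold, with a permutation p of 1e-05 (adjusted 2.00e-05), the smallest these resamples can give. The Vegfa to Ldha ratio was 2.39-fold higher in KO and the Slc2a1 to Ldha ratio 2.15-fold higher, with the same permutation p. The ratios were chosen after the data were seen, when Ldha was known to be lower in KO and the other genes higher on average. The ratios over Ldha were thus bound to differ, and their p adds no separate support. No ratios of other genes were run for comparison. Vegfa to Ldha in KO was 0.175, 0.185 and 0.165 at T22, 0.198, 0.434 and 0.373 at T30, and 0.434, 0.438 and 0.458 at T34, so that T34 and replicates 2 and 3 of T30 were clear of the rest.

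For the remaining ratios the mean over all times joins early and late values that differ. Vegfa to Hk2 was 1.23 to 1.65 in the KO libraries of T10 to T26, all below the 1.77 to 2.18 of WT at those times. At T34 it was 3.53, 3.51 and 3.61 in KO and 1.07, 1.76 and 1.57 in WT, so that KO was then higher in every library. At T30 it was 1.48, 3.29 and 3.21 in KO and 1.78, 1.69 and 1.81 in WT. The pooled ratio, 0.957-fold with adjusted permutation p 0.621, is thus a mean over differences of opposite sign.

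Hk2 to Slc2a1 turned the other way. At T22 it was 1.56, 1.5 and 1.54 in KO and 1.19, 1.08 and 1.08 in WT, and at T34 it was 0.840, 0.881 and 0.861 in KO and 1.86, 1.13 and 1.31 in WT. Its pooled value was 1.16-fold higher in KO (adjusted permutation p 0.0183). Vegfa to Slc2a1 was 2.28, 2.32 and 2.10 in KO and 2.38, 2.19 and 2.24 in WT at T22, which overlap, and 2.96, 3.09 and 3.11 against 1.99, 1.99 and 2.06 at T34. Pooled, it was 1.11-fold higher in KO (adjusted permutation p 0.00978). No test of the ratios was run at single times.

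**Figure D4:**
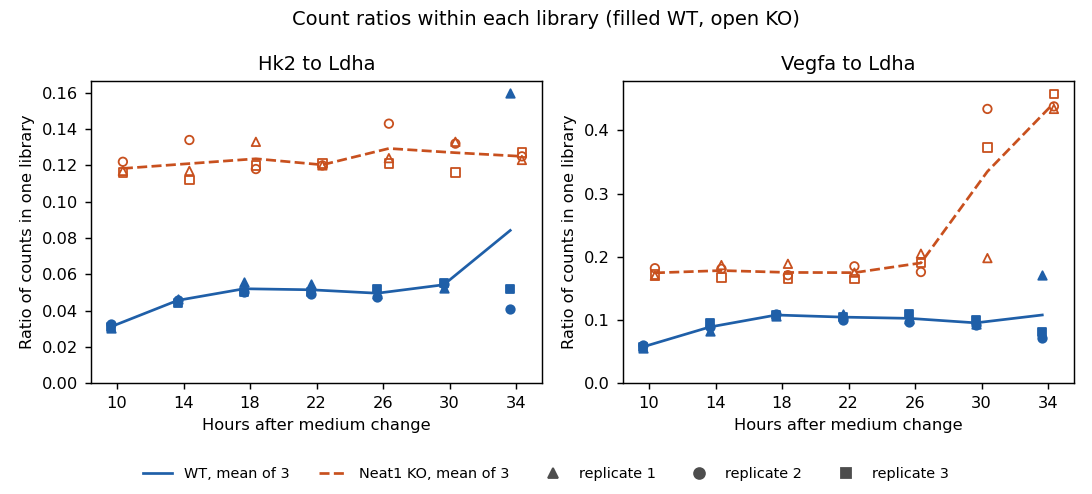
Ratio of Hk2 to Ldha counts (left) and of Vegfa to Ldha counts (right) in each library against hours after the medium change (linear axes from 0, raw counts not divided by gene length). Symbols as by genotype and replicate in the legend, and lines join means of 3. The Hk2 to Ldha ratio stays between 0.112 and 0.143 in KO, while Vegfa to Ldha reaches 0.434 to 0.458 in KO at T34.

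How the 4 genes moved among themselves was described by the Pearson correlation of log2 CPM after the mean of each genotype was removed. The libraries of a genotype share the same times, so these values carry no p. Over the 21 KO libraries, T30 replicate 1 included, Ldha and Hk2 had r = 0.976, Ldha and Vegfa -0.901, and Ldha and Slc2a1 0.680. Over the 21 WT libraries Ldha and Hk2 had r = -0.382, Ldha and Vegfa -0.643, and Hk2 and Slc2a1 0.765. These were 0.128, -0.520 and 0.659 without WT T34 replicate 1, so that 1 library set the sign for Ldha and Hk2 in WT. The difference between the genotypes' correlations was not tested.

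Among the 9493 genes whose mean level reached 10 CPM, those most like Ldha over all 42 libraries were ENSRNOG00000009373 (r = 0.981) and ENSRNOG00000058249 (r = 0.959), whose symbols the files do not give. Their log2 changes in KO from T22 to T34 were -1.06 and -0.99. Since the genes were picked for their likeness over these same libraries, such values follow from the choice and carry no test. ENSRNOG00000009373 was at 19.3, 22.1 and 22.5 CPM in KO at T22 and 9.51 to 11.2 CPM at T34. Whether it shares reads with Ldha was not tested. The genes most like Vegfa were ENSRNOG00000012716 (r = 0.924) and ENSRNOG00000001052 (r = 0.907). Their late log2 changes in KO, which the choice likewise sets, were 0.50 and 0.61. The highest correlations were 0.943 for Hk2 and 0.786 for Slc2a1.

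Since the study is about rhythms, a 24 h cosine curve was fitted in each genotype. In WT 0 of the 4 genes were called, where edgeR called 1.81% of all genes, and the unadjusted p was under 0.05 for Ldha (0.00703) and Slc2a1 (0.00136). In KO 1 of the 4 was called, against 34.6% of all genes. Vegfa had an amplitude of 0.15 on the log2 scale and a fitted peak at 30.9 h (adjusted p 0.0322). The amplitudes of Ldha and Hk2 in KO were 0.27 and 0.26 with peaks at 19.8 and 20.4 h (adjusted p 0.0655 and 0.0738). Without WT T34 replicate 1, Ldha in WT had an amplitude of 0.28 (adjusted p 3.40e-04), and Vegfa and Slc2a1 were also called (adjusted p 0.0413 and 0.00616). Without the T34 libraries all 4 were called in WT (adjusted p at most 0.0207), and Vegfa in KO, at an amplitude of 0.12, was not (adjusted p 0.0542). The shares of all genes called in the fits with libraries left out are not given here, so their calls do not set the 4 genes apart. A cycle of 24 h fills the whole series, in which T10 and T34 share a phase, so no repeat of it was seen.

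As tests with no set shape, the 7 times of a genotype were compared at once. All 4 genes changed over time in WT (edgeR adjusted p 0.0107 for Ldha, 0.00355 for Hk2, 1.01e-04 for Vegfa and 9.90e-04 for Slc2a1, 37.5% of genes called). All 4 also changed in KO (4.56e-05, 2.24e-04, 1.63e-08 and 0.0266 in the same order, 36.8% called). Without WT T34 replicate 1 the adjusted p of Hk2 in WT was 0.0594, and for Ldha in WT it was 0.140 without WT replicate 3 at all times. For Slc2a1 in KO it was 0.146 to 0.297 without KO replicate 2 or 3, and 0.192 with library totals. The effect of genotype varied with time for all 4 (adjusted p 1.69e-04, 4.78e-06, 0.00472 and 8.73e-04, 39.3% called), and for Vegfa it was 0.104 and 0.129 without KO replicate 2 or 3. In a bulk sample, fewer cells with a transcript and less of it per cell cannot be told apart.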

How the data were processed

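The authors deposited raw read counts, as integers for each gene, in separate tables for WT and KO. Counting was by featureCounts, per the submitters' processing notes, and libraries were strand-specific with paired reads of 150 bp, per the labels' protocols. The version, aligner, genome build, annotation, strand setting and gene filter are not given in the sources used here, so reads shared with near-identical copies or overlapping genes are uncertain.

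Columns were matched to samples by the labels. The lowest chi-square per degree of freedom over 42 pairs of replicates was 5.48 (genes with at least 50 counts), so no pair agreed within sampling noise. The highest were 694 and 375, for WT T34 replicate 1 against replicates 2 and 3, which gave 22.2 between themselves. KO T30 replicate 1 gave 54.3 and 38.3 against its replicates, which gave 12.1. The tests used edgeR 4.0.16 under R 4.3.3 (quasi-likelihood F test, TMM, filterByExpr, which removed 0 genes) in 1 fit with 14 group means, with Benjamini-Hochberg adjustment over 13776 genes and calls at an adjusted p under 0.05. SE is the absolute log2 fold change divided by the square root of F. Cosine curves were fitted to the 21 libraries of a genotype. Ratios used numpy 2.4.6. On simulated counts with 200 of 13776 genes changed by 1 on the log2 scale, the late change in KO was recovered for 84.0% of them with 7 false calls, and its difference between genotypes for 71.5% with 7. Apart from that change, each simulated gene had the same level in all libraries, with no genotype difference and no outlying library. The rates of recovery and of false calls in the real data can thus differ from these. Alternatives included DESeq2 1.42.0.

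The genes and lists were chosen with earlier results of these data known. By rule, the 4 genes and the 2 most like each are described, and only the identifiers of those like Ldha and Vegfa are printed. The listed genes of glycolysis, glucose and lactate transport, hypoxia, pyruvate entry and the VEGF family, the isozyme ratios and the cell type markers needed symbols and were not analysed here, and ratios among the 4 genes, chosen after the data were seen, took their place. Replicate numbers were checked in 11 comparisons. In KO against WT at T34 same-numbered libraries correlated at 0.23, 0.13 and 0.14, over 0.1 in every pair, and in the other 10 comparisons they did not all do so.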

Additional observations from a re-analysis of the deposited data

Results flagged for a closer look

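The late change, from T22 to T34, differed between KO and WT by a direct test for all 4 genes. On the log2 scale the KO change minus the WT change was 0.28 for Vegfa, -1.19 for Ldha, -0.35 for Slc2a1 and -1.57 for Hk2. WT T34 replicate 1 and KO T30 replicate 1 move with these values, since the first enters the WT change and both enter the estimate of spread. Without both libraries the values were 0.35, -1.45, -0.27 and -1.22, with edgeR adjusted p of 8.30e-06, 2.12e-16, 0.00447 and 5.90e-13. Both libraries were picked for standing apart for these genes, so these p-values can come out too small and add no separate support. In that fit 5230 genes were called for this difference, against 4869 with all libraries.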

How the results depend on the processing

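Alternatives gave 1427 values for 101 results, of which 1281 kept their direction and call or lay within 1.5 times of a count. Of the 268 values of the 4 genes in KO against WT over all times, the late changes and their difference, 254 did so, 11 were no longer called, 3 became called and 0 changed sign. The replicate block changed no call of the 4 genes in the fit of all libraries, with Ldha at -0.97 and Hk2 at -0.91 for the late change in KO, and lowered only the count of WT rhythms by over 1.5 times, from 250 to 161. In a fit of the 6 libraries of T34, where same-numbered libraries correlated at 0.13 to 0.23, 1505 genes were called with the block and 3057 without it. All 6 libraries correlated best with their own number in 2 of the 11 comparisons.

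T30 in place of T34, both-library removal, the mean of late times, T14 minus T10 and T14 to T26 were chosen after the data were seen. The cause of a moved value was not tested. With T30 minus T22, Slc2a1 in WT was 0.24, Hk2 in WT 0.27 and Hk2 in KO -0.38. The differences between genotypes were then -0.67 for Ldha, -0.27 for Slc2a1 and -0.65 for Hk2, none of them called, with KO T30 replicate 1 included. The genes called were 8 in WT (817 at an unadjusted p under 0.05), 2351 in KO and 1297 for the difference. The mean of T30 and T34 against that of T18 to T26 gave 1961 genes in WT. A fit of the 21 libraries of 1 genotype alone called 1055 genes in WT and 7613 in KO. With libraries left out, the late change in WT ranged from 0.028 to 0.48 for Ldha, 0.17 to 0.33 for Slc2a1 and 0.31 to 0.81 for Hk2. The difference ranged from -0.38 to -0.22 for Slc2a1 and from 0.25 to 0.37 for Vegfa. The genes called were 1726 to 5190 in WT, 2987 to 7471 in KO and 2870 to 5831 for the difference. Signs changed for Slc2a1 at T30 (-0.092) and T34 (-0.18) and Hk2 at T30 (-0.031) with library totals, and for Hk2 at T30 (-0.15) without KO T30 replicate 1, without it and WT T34 replicate 1, or without KO replicate 1 at all times, with values up to 0.42 when other replicates were left out. The early difference of Hk2, -0.02, was 0.0021 and 0.0049 without WT replicate 1 or KO replicate 2, and as low as -0.060 without KO replicate 3.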
